A study of Mus musculus with 12 samples.

Results

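The genes described here are 42 named DNA repair and damage signaling genes of the mouse, covering nucleotide excision, translesion bypass and nucleotide supply, homologous recombination, damage signaling, mismatch repair, base excision, end joining, direct reversal and the Fanconi pathway. They were taken by name and not by a cut on any measured value, though with earlier results of these data known. All 42 were found among the 24421 genes of the deposited table. All 42 were also among the 18948 genes tested, so none was lost to the filter on low values. RNA had been measured by bulk sequencing in 12 libraries. WT MSC (3 libraries) were freshly isolated mesenchymal stem cells from the bone marrow of p53 wild-type mice, sorted for LepR and CD140a on the cell surface after removal of cells with CD45, Ter119 or CD31. Libraries labelled KO MSC (3 libraries) held cells of the same sort from p53 knockout mice. KO tumors (6 libraries) were sarcomas that arose in bone or bone marrow of p53 knockout mice, and no sort of their cells is described in the labels. The labels name neither the knockout allele nor the strain, age or sex of the mice. They also do not say whether libraries of a group came from separate animals, and the spread behind each p-value may therefore be technical.

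DNA repair is divided by lesion. Nucleotide excision removes bulky and ultraviolet damage, base excision removes small base lesions, mismatch repair corrects replication errors, and double-strand breaks are rejoined by end joining or copied from the sister chromatid by homologous recombination. The p53 protein, activated through the kinases ATM, ATR, CHK1 and CHK2, is a transcription factor. Xpc, Polh, Polk and Rrm2b are among its known target genes. Many recombination, mismatch and Fanconi genes are expressed most in dividing cells.

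Values are the deposited stabilized log2 values, on which a difference of 1 is about a doubling for well-expressed genes and less for genes near the floor of the scale. They are not corrected for gene length, so levels were compared between libraries and not between genes. A gene is said to have risen or fallen where its limma adjusted p, corrected over all 18948 genes, was under 0.05. The depth of the libraries is unknown. Exactly shared floor values divide the libraries into 2 batches. Batch 1 holds WT MSC 1, KO MSC 1 and tumors 1 to 3, and batch 2 holds the others, so every value within batch 1 sets the tumors against 1 sorted library, or KO MSC 1 against WT MSC 1 with no test.

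The labels were checked on Trp53, the gene of p53 (GRCm38, chromosome 11, 69580359 to 69591873, plus strand). Its value was 9.96, 10.04 and 10.61 in WT MSC 1 to 3, and 10.49, 9.76 and 6.96 in the libraries labelled KO MSC 1 to 3. The 6 tumors ran from 6.79 to 9.16. KO MSC 1 and 2 thus stood at or near the wild-type level and KO MSC 3 well below it. Reads from outside a deleted part would still be counted, so this checks the labels only in part, and every direction drawn from the KO MSC libraries below is that of the libraries so labelled.

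Marker lists describe what else the libraries held. The mean level of neutrophil and granulocyte markers was 10.57, 9.19 and 7.10 in WT MSC 1 to 3. It was 12.42, 9.49 and 8.02 in KO MSC 1 to 3 and 5.20 to 7.36 in tumors. Endothelial markers had a mean level of 5.39 to 5.88 in WT MSC, 5.49 to 5.96 in KO MSC and 7.13 to 9.12 in tumors. The 12 macrophage markers all rose in tumors, with a mean level of 10.94 to 14.59 in tumors against 5.25 to 6.83 in WT MSC, while the 12 markers of LepR+ stroma all fell, to between 6.76 and 8.92 from between 12.23 and 13.21. Ptprc, which encodes CD45, stood at 5.69 to 6.42 in WT MSC, at 7.60, 5.69 and 5.69 in KO MSC 1 to 3, and at 7.11 to 10.67 in tumors. Erythroid markers, whose cells the sort was to remove, had a mean level of 9.98 to 12.75 in WT MSC, 10.45 to 12.42 in KO MSC and 7.35 to 10.94 in tumors. The mean of 20 proliferation genes was 8.46 to 9.98 in WT MSC, 8.52 to 9.86 in tumors, and 10.88, 10.32 and 8.83 in KO MSC 1 to 3. Of 12 other p53 target genes, none of them among the 42, none passed between KO MSC and WT MSC, and in tumors against WT MSC 3 rose, Cdkn1a (2.42, SE 0.46), Bax (1.88, SE 0.30) and Zmat3 (1.32, SE 0.41), and none fell. In such bulk RNA, fewer cells of a type and less RNA per cell cannot be told apart, and the part of these mixtures in the results below was not tested.

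The libraries labelled KO MSC differed from each other more than any other group in these genes. Genes at a shared floor value numbered 1118 in KO MSC 1, 2143 in WT MSC 1 and 7435 to 10862 in the other libraries. KO MSC 3 had the 10862 and also the lowest upper quartile, 8.35. The part of these library differences in the values below was not tested. KO MSC 3 was the lowest of all 12 libraries for 22 of the 42 repair genes (52.4%), against 21.6% of all genes tested. It lay below the WT MSC mean for 34 of 42, with a median difference of -1.44, where the 11693 genes of the same expression range had a median of -0.51. KO MSC 1 stood at the other end, as the highest of the 12 libraries for 18 of 42 repair genes (42.9%) against 17.9% of all genes. The median SD of a repair gene was 0.36 over WT MSC, 1.08 over KO MSC and 0.53 over tumors, and that of genes in the same expression range was 0.34, 0.72 and 0.61. Differences between tumors and KO MSC described below for genes of the 42 are also given without KO MSC 3 and without KO MSC 1.

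**Figure D1:**
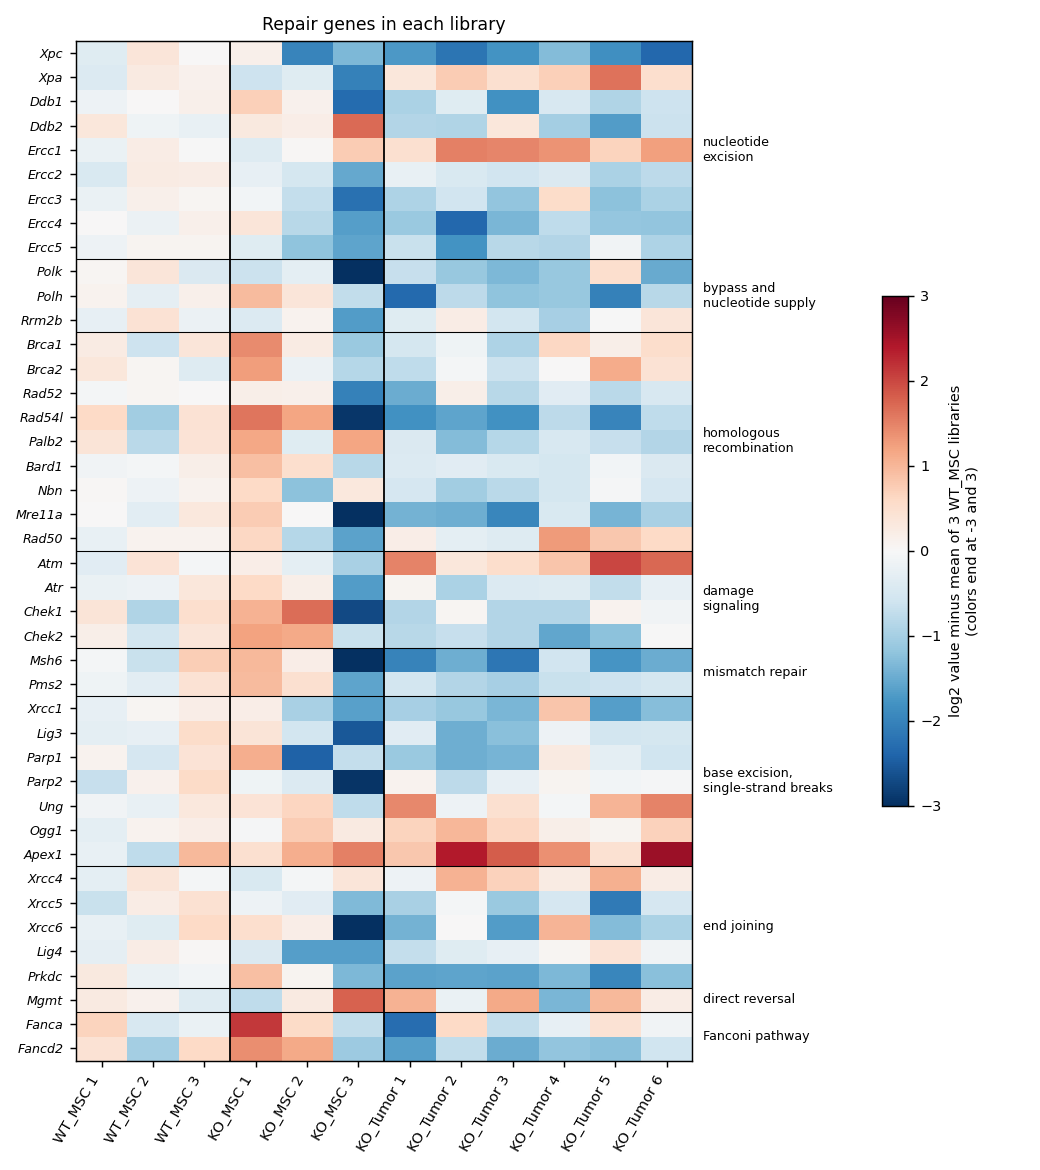
Stabilized log2 value of each of the 42 repair genes (rows, by role) in each of the 12 libraries (columns), as the difference from the mean of the 3 WT MSC libraries; red is higher, blue lower, and colors end at -3 and 3. KO MSC 3 is blue for 34 of 42 genes, KO MSC 1 is mostly red, and each tumor is blue for 27 to 33 of the 42 genes.

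Of the genes that fell in tumors, Xpc and Prkdc had no promoter entry. Promoter sequences are shown for Msh6 and Rad54l, the pair among the others whose window before the start site holds bases free of annotated exons. Both also swung widely between the KO MSC libraries. The sequences are those of RefSeq on GRCm38.p6, 5′ to 3′ on the gene's strand and ending at the base before the start site. They are chr17:87974800-87975049, plus strand, for Msh6 and chr4:116123691-116123839, minus strand, for Rad54l. Capitals mark the CCAAT box, known as a site of the factor NF-Y, and the GC box GGGCGG, known as a site of Sp1 and its relatives, each on either strand, with adjoining boxes running together.
Msh6: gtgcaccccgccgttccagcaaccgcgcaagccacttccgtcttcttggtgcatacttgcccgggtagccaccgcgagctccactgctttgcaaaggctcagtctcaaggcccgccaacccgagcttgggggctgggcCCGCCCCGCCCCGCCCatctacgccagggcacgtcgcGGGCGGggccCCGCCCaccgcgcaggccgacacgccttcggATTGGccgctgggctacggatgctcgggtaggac
Rad54l: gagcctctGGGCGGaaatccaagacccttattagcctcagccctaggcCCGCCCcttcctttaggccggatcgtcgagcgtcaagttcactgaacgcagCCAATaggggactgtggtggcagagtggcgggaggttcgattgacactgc

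The Msh6 stretch holds 1 CCAAT box and 5 GC boxes, some of them overlapping, and the Rad54l stretch 1 CCAAT box and 2 GC boxes. Over the 250 bases before the start, CCAAT was found in 16 of the 34 repair genes with an entry (47.1%) and in 36.5% of 17492 promoters of protein-coding genes, and GGGCGG in 23 of 34 (67.6%) and 42.7%. The E2F-like motif TTTNNCGC was found in 5 of 34 (14.7%) against 5.28%, the cell cycle motif TTTGAA in 2 of 34 (5.88%) against 15.1%, and the p53 half-site consensus in 1 of 34 (2.94%) against 6.31%. All were searched on both strands. Xpc and Rrm2b, named above as p53 targets, had no entry and were not searched. A match describes letters only.

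The design sets stromal cells labelled p53 knockout against wild-type ones, and by the check on Trp53 above this was not plainly a comparison of cells without and with p53. None of the 42 passed between KO MSC and WT MSC. The limma test called 0.00% of all genes in that comparison, and the lowest adjusted p of a repair gene was 0.554. At an unadjusted p under 0.05 stood 1 of 42 repair genes, Lig4, against 8.64% of all genes. Lig4 was at the shared floor in KO MSC 2 and 3. The groups did not overlap for 2 repair genes, Lig4 and Ercc5, both lower in KO MSC, against 8.93% of all genes lower, and for no repair gene higher, against 6.31%. Of the 42, 15 differences were positive and 27 negative, with a median of -0.33 where all genes had -0.01. That median was 0.20 without KO MSC 3, -0.77 without KO MSC 1, 0.59 within batch 1 and -0.83 within batch 2, so its sign followed which KO MSC library was used. It was 0.03 with quantile scaling.

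The second comparison sets the tumors against the sorted cells labelled KO MSC. Again none of the 42 passed, where 4.98% of all genes did. The lowest adjusted p was 0.0616, for Xpa. At an unadjusted p under 0.05 stood 10 of 42, 4 higher and 6 lower in tumors, against 26.5% of all genes. The groups did not overlap for 4 of 42, Xpa and Atm higher in tumors and Polh and Palb2 lower, against 13.4% of all genes in either direction. The count depended on the KO MSC libraries used. Without KO MSC 1 it was 0 of 42, against 0.596% of all genes, and without KO MSC 3 it was 8 of 42, all lower in tumors, against 4.87% of all genes. Those 8 were Chek1, Chek2, Fancd2, Msh6, Pms2, Polh, Prkdc and Rad54l. KO MSC 3 was the lowest KO MSC library for each of these 8 genes. Leaving it out raises their KO MSC mean by construction, and the 8 calls are no support for a difference. The median over the 42 was -0.13 in all, -0.64 without KO MSC 3 and 0.31 without KO MSC 1, where all genes had 0.04, -0.06 and 0.13. Over all genes this comparison called 512 higher and 432 lower, and with quantile scaling 520 higher and 961 lower.

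The third comparison, tumors against WT MSC, holds both the genotype and the change from sorted stroma to unsorted tumor. Of the 42, 1 rose and 7 fell, and 34 did not pass. Ercc1 was the gene that rose, against 10.4% of all genes that rose. Xpc, Ercc4, Polh, Rad54l, Mre11a, Msh6 and Prkdc fell, against 10.9% of all genes that fell. The genes that fell were 16.7% of the 42 and the 1 that rose was 2.38%. Of the 42 differences 10 were positive and 32 negative, with a median of -0.67 where all genes had -0.06. The groups did not overlap for 7 genes lower in tumors (Xpc, Ercc4, Polh, Mre11a, Prkdc, Ddb1 and Pms2), against 12.3% of all genes, and for 2 higher (Ercc1 and Xpa), against 12.9%. The comparisons share libraries, so their values for a gene are not independent. Upper-quartile scaling moved the median of all genes by 0.10 here and between KO MSC and WT MSC. The 8 genes that passed were the same under it. Quantile scaling exchanged Rad54l for Ddb1, and other fits called from 0 to 20 of the 42, as given at the end.

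**Figure D2:**
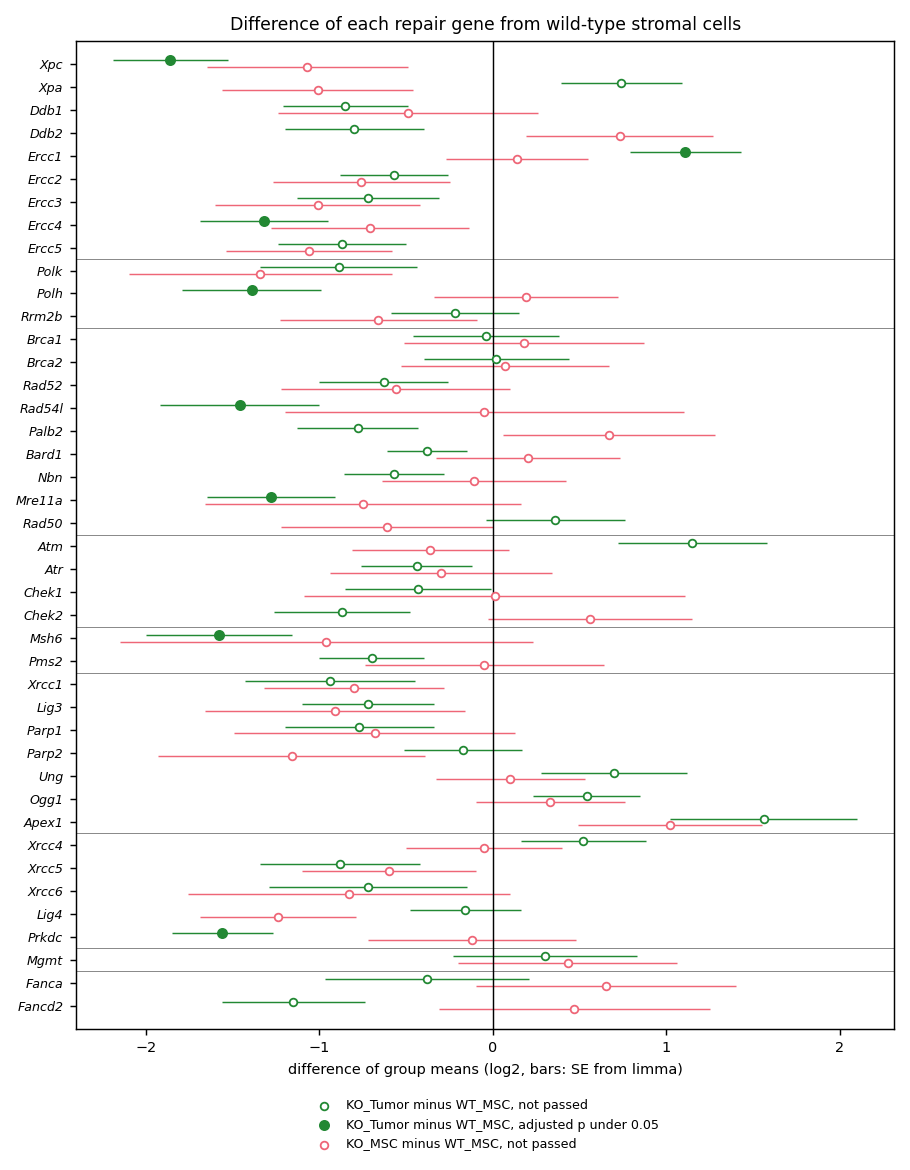
Difference of group means (log2, horizontal axis) of each of the 42 repair genes from WT MSC, for tumors (green) and for the libraries labelled KO MSC (red); bars are standard errors from limma and filled points passed at an adjusted p under 0.05. Only tumor points are filled, 7 on the lower side and 1 on the higher side, and the red bars are the wider except for Apex1.

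Nucleotide excision begins with damage recognition by XPC and by the DDB1 and DDB2 pair. Xpc (chromosome 6, 91489305 to 91515888) was 8.55, 9.28 and 8.92 in WT MSC, 9.06, 6.93 and 7.56 in KO MSC 1 to 3, and from 6.56 to 7.62 with a median of 7.11 in tumors. Every tumor lay below every WT MSC library, and of the libraries labelled KO MSC only KO MSC 1 stood at the wild-type level. Xpc fell in tumors against WT MSC by 1.86 on the log2 scale (SE 0.33, limma adjusted p = 0.00344), or 3.64-fold on this scale. The difference was -1.53 within batch 1 and -2.01 within batch 2, and the call held without each of the 9 libraries in turn. Ddb2, also a recognition factor, did not pass. It was 6.57 to 7.12 in WT MSC, 7.08, 6.97 and 8.48 in KO MSC 1 to 3, and 5.12 to 7.13 in tumors, and 23.8% of its exonic bases overlap Acp2 on the opposite strand. The library kit does not mark strand, so reads of such overlapping genes cannot be told apart. Ddb1, an adaptor of the CUL4 ubiquitin ligase, was 11.77 to 12.08 in WT MSC and 10.12 to 11.56 in tumors, a difference of -0.85 (SE 0.36, limma adjusted p = 0.118) that did not pass.

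The nuclease that cuts on the 5′ side of the lesion is a dimer of ERCC1 and XPF, encoded by Ercc1 and Ercc4, and its partners differed in opposite directions in tumors. Ercc4 (chromosome 16, 13109684 to 13150617) was 7.91, 7.73 and 8.05 in WT MSC, 8.26, 7.06 and 6.23 in KO MSC 1 to 3, and from 5.55 to 7.14 with a median of 6.73 in tumors. It fell in tumors by 1.32 (SE 0.37, limma adjusted p = 0.0284), with -1.62 within batch 1 and -1.02 within batch 2. Ercc1 (chromosome 7, 19344778 to 19356524) was 8.45, 8.87 and 8.65 in WT MSC, 8.28, 8.70 and 9.43 in KO MSC 1 to 3, and from 9.13 to 10.16 with a median of 9.94 in tumors. All 6 tumors stood above all 3 WT MSC libraries. Ercc1 rose by 1.11 (SE 0.32, limma adjusted p = 0.0300), with 1.35 within batch 1 and 0.98 within batch 2.

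Xpa, the scaffold that verifies the lesion, was 6.62, 7.31 and 7.16 in WT MSC, 6.40, 6.66 and 5.00 in KO MSC 1 to 3, and from 7.38 to 8.66 with a median of 7.65 in tumors. The tumors lay above every sorted library. The difference of 1.75 from KO MSC (SE 0.49, limma adjusted p = 0.0616) and that of 0.74 from WT MSC (SE 0.35, limma adjusted p = 0.149) did not pass. The difference from KO MSC was 1.24 without KO MSC 3 and 1.94 without KO MSC 1. Of the remaining genes, Ercc2 and Ercc3 encode helicases of TFIIH and Ercc5 the nuclease that cuts on the 3′ side. None of these passed in any comparison, and their differences between tumors and WT MSC were -0.57, -0.72 and -0.87. Ercc2 shares 42.7% of its exonic bases with other genes, most of all with Gm26852 on the opposite strand.

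The bypass polymerases copy past lesions that stop the replication fork. Polh (chromosome 17, 46171355 to 46202645), which encodes polymerase eta and copies past thymine dimers, was 7.61, 7.24 and 7.66 in WT MSC, 8.45, 7.87 and 6.76 in KO MSC 1 to 3, and from 5.17 to 6.71 with a median of 6.34 in tumors. Every tumor was below every sorted library of either genotype. Polh fell in tumors against WT MSC by 1.39 (SE 0.40, limma adjusted p = 0.0328), with -1.55 within batch 1 and -1.28 within batch 2. The difference of -1.57 from KO MSC (SE 0.52, limma adjusted p = 0.101) did not pass with all libraries. It was -2.04 (adjusted p = 0.0392) without KO MSC 3 and -1.19 (adjusted p = 0.344) without KO MSC 1. Polk, which encodes polymerase kappa, was 7.96, 8.27 and 7.48 in WT MSC, 7.27, 7.61 and 4.83 in KO MSC 1 to 3 and 6.38 to 8.40 in tumors, and passed in none. Nor did Rrm2b, which encodes the p53-inducible subunit of ribonucleotide reductase, with a difference of -0.22 between tumors and WT MSC.

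In homologous recombination the break is first held and trimmed by the complex of MRE11, RAD50 and NBN. Mre11a (chromosome 9, 14784654 to 14837123), the nuclease of that complex, was 8.08, 7.75 and 8.40 in WT MSC, 8.84, 8.09 and 5.06 in KO MSC 1 to 3, and from 6.12 to 7.63 with a median of 6.67 in tumors. The WT MSC libraries and tumors did not overlap, and KO MSC 3 was the lowest library of all. Mre11a fell in tumors by 1.28 (SE 0.37, limma adjusted p = 0.0321), with -1.62 within batch 1 and -0.94 within batch 2. Its partners did not pass. Nbn differed by -0.57 and Rad50 by 0.36.

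Rad54l (chromosome 4, 116094264 to 116123690) encodes a motor protein of strand exchange, and its promoter is printed above. It was 9.0, 7.35 and 8.82 in WT MSC, 9.99, 9.57 and 5.47 in KO MSC 1 to 3, and from 6.41 to 7.62 with a median of 6.69 in tumors. WT MSC 2 stood inside the range of the tumors, so these groups overlapped, and KO MSC 3 lay below them all. Rad54l fell in tumors by 1.46 (SE 0.46, limma adjusted p = 0.0431), with -2.34 within batch 1 and -0.88 within batch 2. Proliferation genes were lower in WT MSC 2, with a mean of 8.46, than in WT MSC 1 and 3, with 9.76 and 9.98, and were 10.88, 10.32 and 8.83 in KO MSC 1 to 3. The part of proliferation in the Rad54l result was not tested. Of its exonic bases 15.4% overlap Lrrc41 on the opposite strand.

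Palb2, which links BRCA1 to BRCA2, was 7.24, 6.04 and 7.26 in WT MSC, 8.02, 6.50 and 8.03 in KO MSC 1 to 3, and from 5.54 to 6.42 in tumors. It was 1 of 8 repair genes that stood above the WT MSC mean in KO MSC 3. The difference of -1.44 between tumors and KO MSC (SE 0.45, limma adjusted p = 0.0854) did not pass, and it was -1.19 without KO MSC 3 and also without KO MSC 1. Brca1 and Brca2, which act in the step before strand exchange, had differences of -0.04 and 0.02 between tumors and WT MSC, with standard errors of 0.42 each. Bard1, the partner of BRCA1, differed by -0.38 and Rad52, an annealing factor, by -0.63. None of these passed.

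Damage signaling genes did not pass in any comparison with all libraries. Atm, the kinase that answers double-strand breaks, was 6.06, 6.81 and 6.33 in WT MSC, 6.60, 6.10 and 5.43 in KO MSC 1 to 3, and from 6.75 to 8.39 with a median of 7.56 in tumors. Tumor 2 lay just below the highest WT MSC library, and the other tumors lay above all sorted libraries. The difference was 1.15 from WT MSC (SE 0.43, limma adjusted p = 0.0821) and 1.51 from KO MSC (SE 0.50, limma adjusted p = 0.101), the latter 1.20 without KO MSC 3 and 1.79 without KO MSC 1. Chek2, the checkpoint kinase that ATM activates, was 8.17, 7.44 and 8.36 in WT MSC, 9.19, 9.13 and 7.31 in KO MSC 1 to 3, and 6.42 to 7.97 in tumors. KO MSC 1 and 2 were the highest of all libraries. The difference between tumors and KO MSC was -1.43 (limma adjusted p = 0.127) with all libraries, -2.04 (adjusted p = 0.0264) without KO MSC 3 and -1.10 (adjusted p = 0.403) without KO MSC 1. Chek1, the kinase downstream of ATR, had the widest swing in KO MSC of this role, with 8.38, 9.0 and 4.63. Atr differed by -0.44 between tumors and WT MSC.

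Mismatch repair begins with recognition of the mispaired base, in which MSH6 takes part, and goes on with cutting of the new strand, in which PMS2 takes part. Msh6 (chromosome 17, 87975062 to 87990892), whose promoter is printed above, was 9.46, 8.83 and 10.23 in WT MSC, 10.47, 9.70 and 5.46 in KO MSC 1 to 3, and from 7.34 to 8.92 with a median of 7.88 in tumors. Only tumor 4 reached the lowest WT MSC library. Msh6 fell in tumors by 1.58 (SE 0.42, limma adjusted p = 0.0220), or 2.98-fold on this scale, with -1.82 within batch 1 and -1.30 within batch 2. Pms2, which encodes a nuclease subunit, was 7.45, 7.24 and 8.01 in WT MSC, 8.52, 8.05 and 5.99 in KO MSC 1 to 3, and 6.57 to 7.04 in tumors. Every tumor lay below every WT MSC library, but the difference of -0.70 (SE 0.30, limma adjusted p = 0.116) did not pass.

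**Figure D3:**
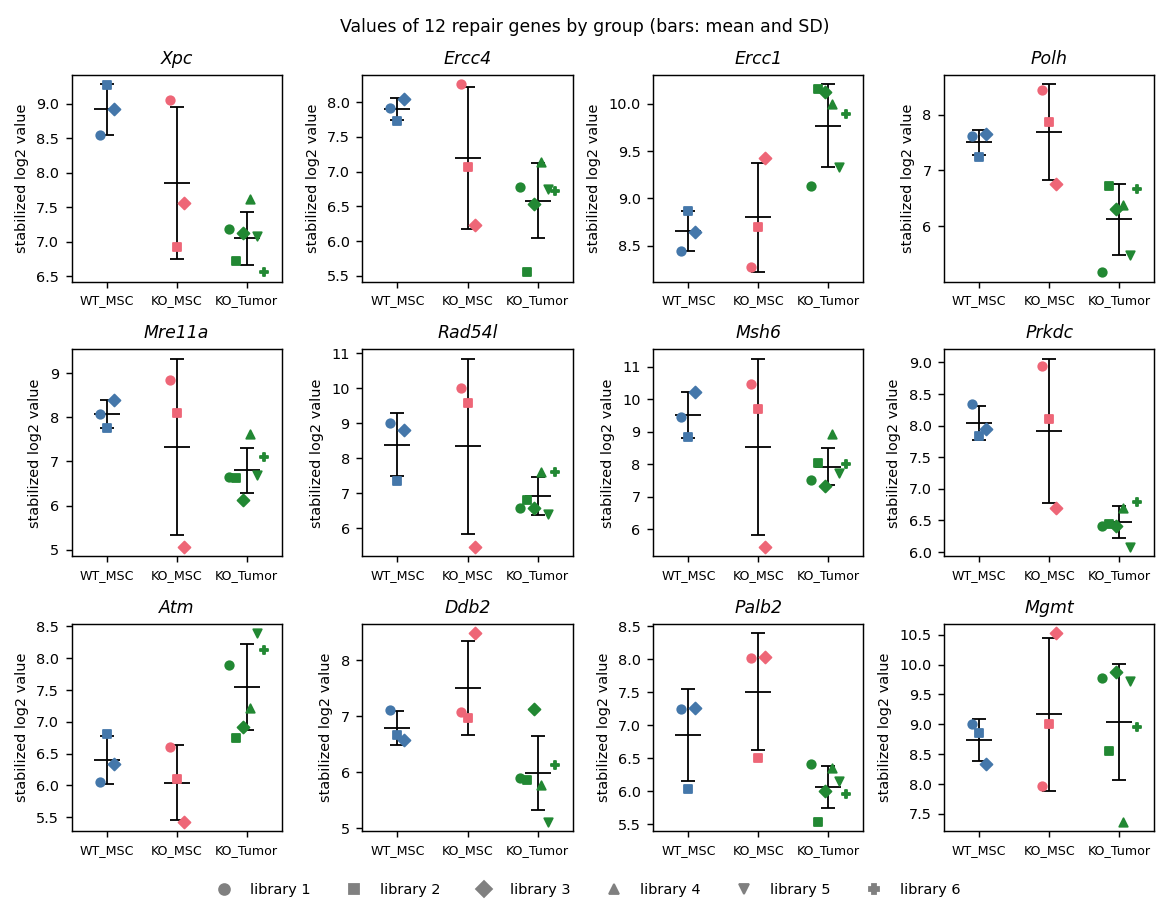
Stabilized log2 values (vertical axes, each with its own range) of 12 repair genes in the 3 WT MSC libraries (blue), the 3 libraries labelled KO MSC (red) and the 6 tumors (green); long bars are means, short bars 1 SD, and marker shapes give the library number. For Xpc, Ercc4, Polh, Mre11a and Prkdc all tumors lie below all WT MSC libraries, and for Ercc1 all lie above. In most panels KO MSC 3 (diamond) is far from KO MSC 1 (circle).

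Base excision and single-strand break genes did not pass in any comparison. Apex1, the endonuclease that cuts at sites without a base, was 8.57, 8.01 and 9.77 in WT MSC, 9.27, 9.87 and 10.29 in KO MSC 1 to 3, and from 9.25 to 11.34 with a median of 10.37 in tumors. Its difference of 1.56 between tumors and WT MSC (SE 0.54, limma adjusted p = 0.0621) was the largest positive one of the 42, and WT MSC 3 stood among the tumors. Of its exonic bases 61.7% overlap Pip4p1 on the opposite strand, so the value may hold reads of both genes. Xrcc1, the scaffold of single-strand break repair, was 8.71, 9.01 and 9.17 in WT MSC, 9.16, 7.99 and 7.32 in KO MSC 1 to 3, and 7.32 to 9.79 in tumors. Tumor 4 was the highest library of all and the other tumors were at 7.95 or lower. The remaining genes here encode DNA ligase 3, the break sensors PARP1 and PARP2, and the glycosylases UNG and OGG1. Their differences between tumors and WT MSC were -0.72 for Lig3, -0.77 for Parp1, -0.17 for Parp2, 0.70 for Ung and 0.54 for Ogg1. Lig3 shares 25.1% of its exonic bases with other genes, most of all with Rffl on the opposite strand.

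End joining is led by the DNA-dependent protein kinase, whose catalytic subunit is encoded by Prkdc and whose DNA-binding subunits, KU80 and KU70, by Xrcc5 and Xrcc6. Prkdc (chromosome 16, 15637866 to 15842235) was 8.34, 7.83 and 7.95 in WT MSC, 8.95, 8.11 and 6.69 in KO MSC 1 to 3, and from 6.08 to 6.79 with a median of 6.44 in tumors. The tumors were close together, with an SD of 0.25, and all lay below all WT MSC libraries. Prkdc fell by 1.56 (SE 0.29, limma adjusted p = 0.00483), or 2.96-fold on this scale, with -1.91 within batch 1 and -1.37 within batch 2. Its call held without each of the 9 libraries in turn. Against KO MSC the difference was -1.44 (limma adjusted p = 0.112) with all libraries, -2.05 (adjusted p = 0.0179) without KO MSC 3 and -0.93 (adjusted p = 0.397) without KO MSC 1.

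Lig4, the ligase that seals the joined ends, was 6.46, 6.95 and 6.76 in WT MSC, 6.29, 5.08 and 5.08 in KO MSC 1 to 3, and 6.0 to 7.14 in tumors. All 3 KO MSC libraries lay below all WT MSC libraries. KO MSC 2 and 3 held the same shared floor value, so a difference that uses them is one from the floor. The difference of -1.24 (SE 0.45, limma adjusted p = 0.554) did not pass, and it was -0.17 within batch 1 and -1.78 within batch 2, and -1.04 without KO MSC 3 and -1.65 without KO MSC 1. Xrcc5, Xrcc6 and Xrcc4, the ligase's scaffold, did not pass in any comparison, with differences of -0.88, -0.72 and 0.52 between tumors and WT MSC.

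Mgmt, which removes alkyl groups from guanine directly, was 9.01, 8.86 and 8.34 in WT MSC, 7.97, 9.01 and 10.52 in KO MSC 1 to 3, and 7.37 to 9.87 in tumors. KO MSC 3, the lowest library for most repair genes, was the highest for Mgmt, and the groups overlapped throughout. In the Fanconi pathway, which clears crosslinks between strands, Fancd2 is the gene of the protein that is ubiquitinated at the lesion and Fanca that of a core complex subunit. Fancd2 was 7.45, 6.0 and 7.62 in WT MSC, 8.41, 8.15 and 5.92 in KO MSC 1 to 3, and 5.36 to 6.42 in tumors. WT MSC 2 and KO MSC 3 lay among the tumors, and the other sorted libraries lay above them. The difference of -1.15 between tumors and WT MSC (SE 0.41, limma adjusted p = 0.0689) did not pass, nor did that of -1.62 from KO MSC (limma adjusted p = 0.109), which was -2.41 (adjusted p = 0.0111) without KO MSC 3 and -1.17 (adjusted p = 0.375) without KO MSC 1. Fanca was 7.36, 6.21 and 6.50 in WT MSC, 8.81, 7.26 and 5.95 in KO MSC 1 to 3, and 4.42 to 7.29 in tumors, and passed in no comparison.

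Of the 8 calls between tumors and WT MSC, those of Xpc and Prkdc held without each single library, and the other 6 were each lost without some of them. Msh6 was lost without WT MSC 1 or 3. Ercc4 was lost without any 1 of the WT MSC libraries or tumor 3, Mre11a without any 1 of the WT MSC libraries or tumor 2 or 3, and Polh without any 1 of the WT MSC libraries or tumor 3 or 5. Rad54l was lost without WT MSC 1 or 3 or tumor 1, 2, 3 or 5, and Ercc1 without any 1 of the WT MSC libraries or tumor 2, 3 or 6. Fitted within batch 1, which sets 3 tumors against the single library WT MSC 1, Prkdc and Rad54l passed, against 14.8% of all genes that passed there. Such a fit assumes that the lone library varies like the tumors. Within batch 2 none of the 8 passed, against 2.85% of all genes, and each difference kept its sign.

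Transcript length moved with these differences. Genes were divided into 4 equal bins by their longest coding transcript. In the shortest bin (216 to 1913 bases), 26.6% rose in tumors against WT MSC and 3.58% fell, and in the third bin (3025 to 4546 bases) 5.35% rose and 17.6% fell. Ercc1, which rose, has a transcript of 1375 bases, and the 7 repair genes that fell have 3025 to 12647 bases with a median of 3634. By bin from short to long, the 7, 8, 14 and 13 repair genes had medians of 0.54, -0.76, -0.86 and -0.38, where all genes had 0.47, -0.16, -0.32 and -0.21.

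With the trend over length removed from each library, an alternative chosen after the data were seen, 5 repair genes passed, 4 of them lower, against 13.3% of all genes lower and 11.5% higher in that fit. Xpc (-1.52, adjusted p = 0.00545), Prkdc (-1.55, adjusted p = 0.00594), Msh6 (-1.23, adjusted p = 0.0369) and Mre11a (-1.02, adjusted p = 0.0452) stayed lower by limma, and Atm rose (1.22, adjusted p = 0.0384). Ercc4 (-0.98, adjusted p = 0.0507), Rad54l (-1.17, adjusted p = 0.0624) and Polh (-1.07, adjusted p = 0.0729) no longer passed. The difference of Ercc1 went from 1.11 to 0.60 (adjusted p = 0.174). The median over the 42 genes was then -0.41 and that over all genes 0.00.

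**Figure D4:**
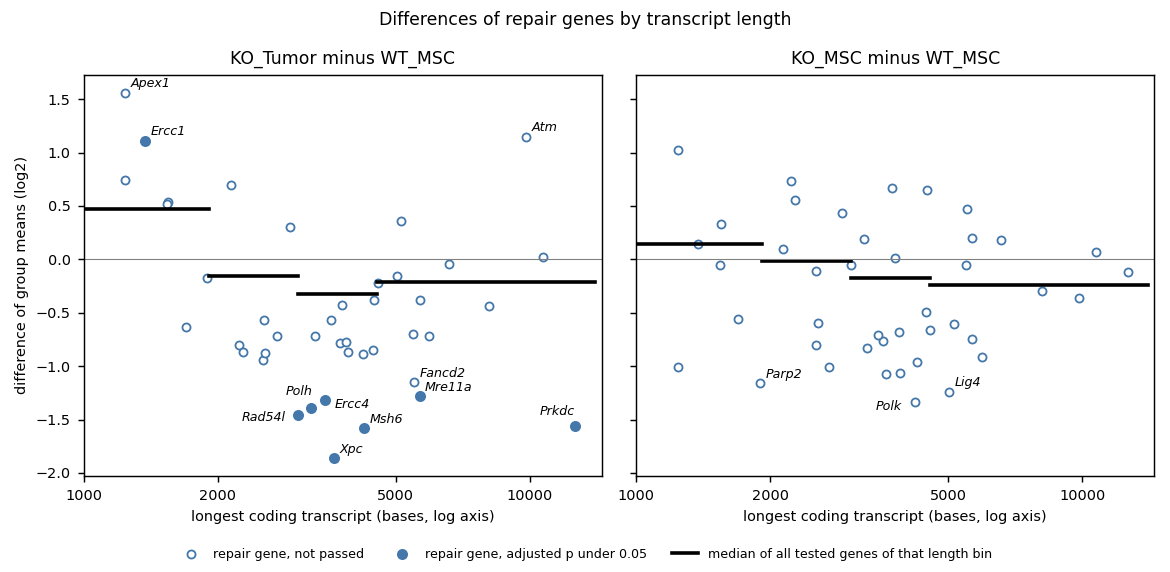
Difference of group means (log2, vertical axis) of the 42 repair genes against the length of the longest coding transcript (bases, log axis), for tumors and for libraries labelled KO MSC against WT MSC; filled points passed at an adjusted p under 0.05 and black lines are medians of all tested genes in each of 4 equal bins of length. The line for tumors is at 0.47 in the shortest bin and -0.32 in the third, and 5 of the 7 repair genes of the shortest bin are positive.

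Other genes of the same pathways, 104 of them tested, were read beside the 42. Between KO MSC and WT MSC none of the 104 passed, with 53 differences positive and 51 negative. Of those with the smallest unadjusted p in each role, H2afx, the histone marked at breaks, had a difference of 1.42 (SE 0.39), Parp3 -1.91 (SE 0.45), Pcna, the replication clamp, 1.43 (SE 0.44) and Ube2t, the Fanconi conjugating enzyme, 1.45 (SE 0.46). The limma adjusted p of each was 0.551.

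Between tumors and KO MSC 2 of 104 passed, both lower (1.92%), where 4.98% of all genes passed. Rrm2, the replicative subunit of ribonucleotide reductase, fell by 2.54 (SE 0.56, limma adjusted p = 0.0263), and Fancc, a Fanconi core subunit, fell by 2.5 (SE 0.41, limma adjusted p = 0.00802).

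Between tumors and WT MSC 9 of 104 rose by limma (8.65%) and 21 fell (20.2%), where 10.4% of all genes rose and 10.9% fell. In nucleotide excision 3 of 13 rose, Gtf2h5 (2.93, SE 0.41), the smallest subunit of TFIIH, Cetn2 (1.98, SE 0.42), a partner of XPC, and Rad23b (1.09, SE 0.34), and 2 fell, among them Xab2 (-2.21, SE 0.47). Rad23b, which encodes a partner of XPC, was 7.35 to 8.64 in WT MSC and 8.91 to 9.60 in tumors. In mismatch repair all 5 other genes had negative differences, and 3 of them fell, among them Msh3 (-0.99, SE 0.31), which encodes a recognition subunit for small loops.

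Of 11 other genes of bypass and nucleotide supply 4 fell, the polymerase gene Poli, the bypass scaffold Rev1, and Rrm1 and Rrm2 of ribonucleotide reductase. In homologous recombination 4 of 20 fell, the nuclease or helicase genes Dna2, Wrn, Mus81 and Gen1, and Rpa3 of the single-strand binding complex rose. In damage signaling H2afx and Brcc3 rose and Atrip, the partner of ATR, fell, among 17. In base excision Polb, the gap-filling polymerase, rose and Fen1 and Tdp1 fell, among 17. Poll fell among 6 genes of end joining. Fancc, Fanci, Faap24 and Faap100 fell among 13 of the Fanconi pathway, and Alkbh2 and Alkbh3, which reverse alkylation, both rose. The 9 that rose had a median transcript of 1384 bases and the 21 that fell one of 2778 bases.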

How the data were processed

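RNA of 12 libraries was sequenced after cDNA synthesis by a low-input kit, per the labels' protocols. TopHat2 2.0.13, Cufflinks 2.2.1, Cuffdiff and build mm10 are named in the submitters' processing notes. The authors deposited log2 values of 24421 genes in a table that its name gives as stabilized and adjusted for batch, and a second table whose values are a score. Each deposited score equals 100 times the stabilized value over 1 factor per library, rounded, for 100% of 18949 genes (tolerance 0.01). No reads could be recovered, so the depth is unknown and no count test was made. The planned test assumed normalized counts with a pseudocount, and since the values were already logarithms none was added.

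limma 3.58.1 in R 4.3.3 (lmFit and trended eBayes, two-sided, without covariates) was fitted on the stabilized values of each comparison's own groups, over the 18948 genes that are in both tables and vary, with Benjamini-Hochberg adjustment and a threshold of 0.05. The fit was tested on simulated data. Since the values had already been adjusted for batch, the p-values can be too small. Libraries of WT MSC and KO MSC with the same number correlated by 0.24, 0.15 and -0.15 in their deviations from the group means, so the numbers were not taken as pairs.

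The 42 genes, the lists, the tests and the naming rule were chosen with earlier results of these data known. All 42 may be named. Values per library are given for those that passed and for the 2 with the smallest p in each role. Outside this rule, values of single libraries are also given for Ddb2 and Chek1, and for Ercc3 among the flagged results. Of the other pathway genes, those that passed may be named or, where none did, those with the smallest p. Longest coding transcripts and positions come from GENCODE vM21 (GRCm38), and 16294 of the genes tested (86.0%) had a length. Promoters come from RefSeq on GRCm38.p6 and were matched by symbol for 34 of 42 genes. Some of the other pathway genes that passed are not reported here by name.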

Additional observations from a re-analysis of the deposited data

Results flagged for a closer look

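Among tumors, 3 of the 42 repair genes had 1 library farther from the others than the 95% limit of Dixon's test allows, which chance gives in about 1 of 20 groups. Xpa was 8.66 in tumor 5 and 7.38 to 7.80 in the others. Ercc3 was 8.80 in tumor 4 and 7.03 to 7.68 in the others. Xrcc1 was 9.79 in tumor 4 and 7.32 to 7.95 in the others. The differences from WT MSC without tumor 4 were -0.97 for Ercc3 and -1.29 for Xrcc1, against -0.72 and -0.94 with it, and limma then passed both. Since tumor 4 was singled out for being high in these genes, that is no test of a difference.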

How the results depend on the processing

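Of the 42 genes, 0 passed between KO MSC and WT MSC, 0 between tumors and KO MSC and 8 between tumors and WT MSC by limma. For KO MSC against WT MSC the count was 5 with library weights (Ercc5, Lig4, Parp1, Xpc and Xrcc1, all lower), where 12.9% of all genes passed, and 0 in the other fits that gave a test, including 0 without each library in turn. Within batch 1 that comparison has 1 library against 1 and gave no test. For tumors against KO MSC it was 14 with library weights (25.4% of all genes), 6 in batch 1 alone (17.1%), where KO MSC 1 is the only KO MSC library, 4 with quantile scaling (7.82%), 2 with all 12 libraries in 1 fit (10.1%), 2 with the length trend removed (9.90%), and 1 (Xpa) with a minimum mean of 7 (12.9%), with the score table (5.17%) or with upper-quartile scaling (6.22%). It was 0 to 8 when each library was left out, and 8 only without KO MSC 3. For tumors against WT MSC, where 21.3% of all genes passed, it was 20 with library weights (36.0%), 5 with the length trend removed (24.8%), 3 with all 12 libraries in 1 fit (17.5%), 2 in batch 1 alone (14.8%), where WT MSC 1 is the only WT MSC library, 0 in batch 2 alone (2.85%) and 2 to 10 when each library was left out, with 2 without WT MSC 1, 3 without WT MSC 3 or tumor 3, and 5 without WT MSC 2 or tumor 2. Without a filter it was 7, with a batch term 6, and with a minimum mean of 7, the score table or either scaling 8. Equal counts did not always hold the same genes. With the minimum mean 25 of the 42 were tested, Apex1 and Atm entered, and Polh and Prkdc were absent. Quantile scaling exchanged Rad54l for Ddb1. With the replicate number as a block, the count was 0 in all 3 comparisons. Of all genes, that fit passed 7.63% for tumors against WT MSC and 0.179% for tumors against KO MSC. For KO MSC against WT MSC it passed 0.00%. Tumors 4 to 6 have no partner in that fit and carry no weight. The cause of these changes was not tested. The block, single-batch and left-out fits also use fewer libraries. None of the 8 differences called between tumors and WT MSC with all libraries changed sign under any alternative run. Some differences called only under an alternative did. Msh6 between tumors and KO MSC was -2.16 without KO MSC 3 and 0.35 without KO MSC 1. Depth is unknown, so what it limits could not be given, and values near the floor of the stabilized scale understate changes.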
